A study of Mus musculus with 6 samples.

Results

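The profile described here is that of control mesenchyme under DHT: the transcripts read in cultured urogenital sinus mesenchyme that received an androgen and no added estrogen. It rests on the 3 control arrays of the 6 arrays in the series. The cells came from male CD-1 mouse fetuses at gestation day 17, from the prostatic region of the urogenital sinus (UGS), the embryonic tube that gives rise to the prostate, and epithelium was removed before culture. Before passage the cells grew in fetal bovine serum that had not been stripped of its steroid hormones. First passage cells were then held in medium with charcoal-stripped sera, insulin and 690 pM DHT for 3 days without estrogen. They stayed in it for 4 days more, when the controls received only the ethanol vehicle. DHT is dihydrotestosterone, the androgen that drives prostatic budding and that is not converted to estrogen. All 3 control samples share the DHT, so these data hold no sample without androgen. Neither the labels nor the methods say whether the 3 samples came from separate cell preparations, so the spread between them may be technical.

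In the developing prostate androgen acts first on the mesenchyme. Mesenchymal cells answer androgen by sending growth factors and matrix signals to the overlying epithelium, which then buds and branches. Part of the same mesenchyme becomes the smooth muscle that later surrounds the prostatic ducts.

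Total RNA was read on Affymetrix mouse 430A arrays, on which each probe set gives a fluorescence signal for the transcript it matches. The signals of 22626 probe sets, with the 64 AFFX control probe sets left out, were divided by the median of their array. They were then multiplied by the mean of the 3 medians, so that a unit is the same on all arrays. Where a gene had several probe sets, the one brightest on the log2 scale stands for it, which left 12393 genes. A gene at 10 units or more on all 3 arrays is called present, a gene under 10 units on all 3 absent, and the others split. By these calls 7326 genes were present, 1427 were split and 3640 were absent. As deposited, the medians were 17.1, 19.9 and 14.01 units for replicates 1 to 3, and after scaling 59.9 to 60.8% of probe sets reached 10 units on each array. Replicate 3 stood apart in 1 array control, the 18S ribosomal RNA probe set, which read 281 units as deposited against 44.7 and 43.1 units in replicates 1 and 2. The 3′ to 5′ ratio was 1.01 to 1.06 for actin and 0.825 to 0.886 for Gapdh. Signal also depends on how well a probe set binds its target, so the order of genes below is an order of signals and not of RNA amounts.

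The genes of highest signal were mainly those of ribosomes, the cytoskeleton and the extracellular matrix. Of the 50 with the highest mean, 21 are on the list of cytosolic ribosomal proteins, which leaves out Rpl41, 11 on the list of the actin and microtubule cytoskeleton and 10 on the list of the extracellular matrix. These 3 lists account for 42 of the 50. Few genes carried much of the signal: 133 genes at 1000 units or more held 23.3% of the summed signal of all genes, and the 50 brightest held 12.2 to 13.8% on the 3 arrays. At the other end, 4494 genes with a mean under 10 units held 1.74%. The median gene read 23.2 units.

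Rpl41, a ribosomal protein gene, gave the highest signal, with 6147, 5651 and 7603 units in replicates 1, 2 and 3. Lgals1, which encodes the secreted galectin 1, read 4340, 3963 and 5055 units. Col1a2, the second chain of type I collagen, read 4174, 3932 and 4734 units. For all of these replicate 3 was the highest array and replicate 2 the lowest. Acta2, smooth muscle alpha actin, read 4293, 3319 and 4447 units and lay with the cytoplasmic actins Actb (4014 ± 495 units, SD, n = 3) and Actg1 (3446 ± 659). The matrix glycoprotein gene Sparc read 3995 ± 348 units, the translation elongation factor gene Eef1a1 3884 ± 550 and the ribosomal protein gene Rpl37a 3721 ± 567. Next came Col1a1, the first chain of type I collagen, with 3390 ± 286 units. Neighbors in this order lay within the spread of the arrays: the SDs of the genes from Col1a2 to Eef1a1 were 348 to 612 units and their means differed by 396 units at most. The remaining genes of the first 25 ran from 3357 units down to 2545. They were Tmsb10 and Tmsb4x (thymosins, which bind actin monomers), Fth1 (ferritin heavy chain), Tpt1, Lox (the enzyme that cross-links collagen), Col3a1, Tpm1 and Tpm2 (tropomyosins), Cox5b (a subunit of cytochrome c oxidase) and the ribosomal genes Rpsa, Rps2, Rplp2, Rps29, Rpl38 and Rps18. Tpt1, Rpsa, Lox, Cox5b and Rps18 each also have a probe set under 10 units on all 3 arrays, so their calls rest on the brighter ones. A further Acta2 probe set was split, with a mean of 11.3 units, and the values above are those of the brighter one.

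**Figure D1:**
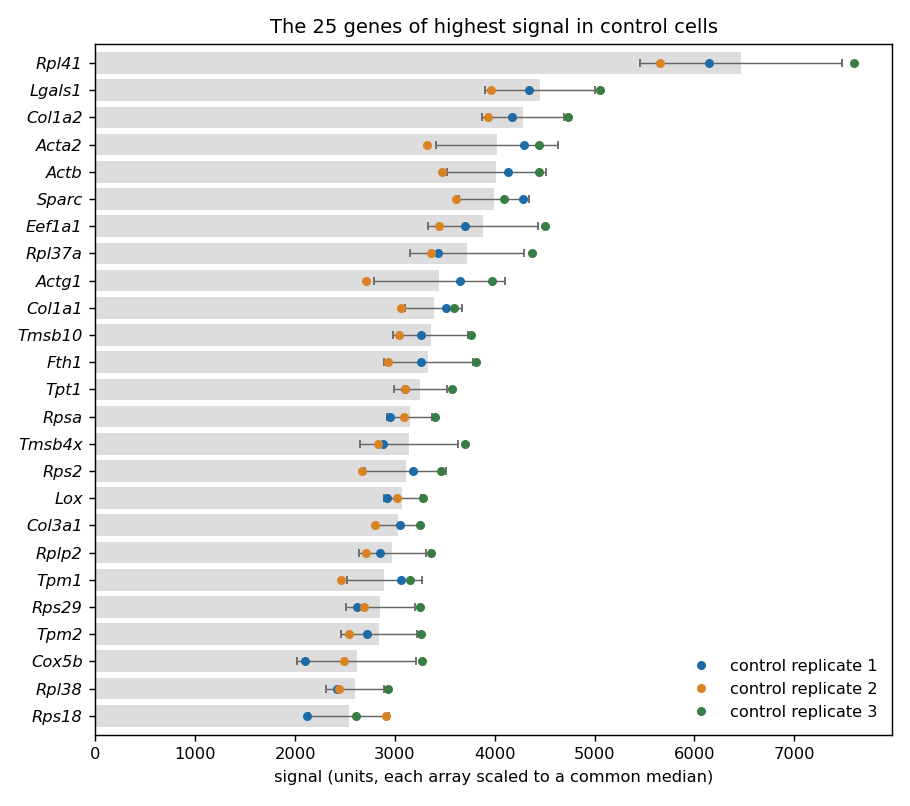
The 25 genes of highest signal in control mesenchyme, with signal in units on the horizontal axis, bars for the mean of 3 arrays, whiskers for the SD and a point for each array. Rpl41 stands alone at 6467 units, while the genes from Lgals1 to Rps18 descend in small steps from 4453 to 2545 units with overlapping points.

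Further down the 50 brightest were Tagln, Anxa2, Bgn, Dcn, Fn1, Mgp, Col5a2 and Myl9. Saa3, serum amyloid A3, an acute phase gene, was among them with 1817, 1915 and 2279 units, and all 3 arrays were close to one another. When only probe sets without the _s, _x or _a suffix were used, which carry no mark of matching several transcripts, 31 of the 50 genes kept a probe set and 18 were among the 50 brightest of that setting.

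Promoters of present genes differed from those of absent genes in their content of CG dinucleotides. Most CG pairs in vertebrate genomes have been lost through methylation, and those that remain are concentrated in islands at the starts of broadly used genes. The content is given as an observed to expected ratio, the number of CG pairs times the length over the product of the C and G counts, in the 250 bases before the annotated start. RefSeq sequence of build GRCm38.p6 was matched by gene identifier for 9882 of the 12393 genes. The median ratio was 0.76 in 5993 present genes, 0.57 in 1100 split genes and 0.33 in 2789 absent genes. It was 0.67 in these 9882 genes together and 0.38 in all 27025 promoters of the table. Read the other way, 21.9% of the 2051 genes with a ratio under 0.3 were present. The share was 52.8% of 2173 genes at 0.3 to 0.6, 75.5% of 3693 at 0.6 to 0.9 and 81.7% of 1965 at 0.9 or more. Genes are not independent replicates, and these shares are a description.

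Not every bright group had such promoters. The median ratio was 0.88 in 37 ribosomal protein genes, 0.52 in 47 matrix genes and 0.42 in 12 smooth muscle genes, although most of these matrix and smooth muscle genes were present. The 250 bases before the start of 4 genes are shown to give the contrast, with each CG pair in capitals. Rpl37a (chr1:72711010-72711259, plus strand) and Actg1 (chr11:120348496-120348745, minus strand) are bright genes with 19 and 43 CG pairs. Col3a1 (chr1:45311288-45311537, plus strand), a collagen gene among the 25 brightest, has 0 in this window. Alb (chr5:90460620-90460869, plus strand), the liver gene for serum albumin and absent here, has 2.
Rpl37a: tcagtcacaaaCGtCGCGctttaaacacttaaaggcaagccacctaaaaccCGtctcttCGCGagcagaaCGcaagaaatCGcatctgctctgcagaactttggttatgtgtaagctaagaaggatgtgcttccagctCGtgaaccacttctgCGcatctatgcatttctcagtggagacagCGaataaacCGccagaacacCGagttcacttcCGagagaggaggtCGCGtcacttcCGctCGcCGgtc
Actg1: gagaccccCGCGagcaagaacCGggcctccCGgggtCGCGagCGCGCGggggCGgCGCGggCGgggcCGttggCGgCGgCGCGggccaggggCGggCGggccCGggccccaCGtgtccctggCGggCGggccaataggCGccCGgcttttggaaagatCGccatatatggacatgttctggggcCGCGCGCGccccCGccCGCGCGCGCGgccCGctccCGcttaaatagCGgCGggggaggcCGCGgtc
Col3a1: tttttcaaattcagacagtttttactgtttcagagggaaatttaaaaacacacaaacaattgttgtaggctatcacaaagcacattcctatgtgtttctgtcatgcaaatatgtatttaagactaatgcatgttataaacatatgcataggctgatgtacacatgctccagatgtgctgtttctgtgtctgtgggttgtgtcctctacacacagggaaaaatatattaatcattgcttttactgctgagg
Alb: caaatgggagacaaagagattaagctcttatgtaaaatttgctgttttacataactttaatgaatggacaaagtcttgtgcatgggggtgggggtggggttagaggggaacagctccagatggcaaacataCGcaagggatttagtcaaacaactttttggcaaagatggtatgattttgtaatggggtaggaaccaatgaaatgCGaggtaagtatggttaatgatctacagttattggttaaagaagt
All are written 5′ to 3′ in the direction of the gene. Actg1 holds 6 GGGCGG motifs and a CArG box, CC and GG around a run of A or T, which starts 90 bases before the annotated start. The CArG box is the sequence bound by serum response factor. On either strand it was found in 5 of 110 promoters of genes at 1000 units or more, those of Actg1, Cnn2, Gstp1, Myl9 and Rpl10a. This is 4.55%, against 1.38% of the 9882 genes measured and 1.40% of all promoters in the table. GGGCGG was found on either strand in 63.3% of present and 33.5% of absent genes, TATAAA in 6.17% and 14.95%, and CCAAT in 36.6% and 34.3%. The shares were 53.2%, 9.14% and 35.8% of the 9882 genes measured, and 32.9%, 12.97% and 34.5% of all promoters. GGGCGG itself holds a CG pair, so its share is tied to the ratio above.

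The cells carried the markers of fibroblastic mesenchyme. Of 20 such genes, 19 were present (95%), against 59.1% of all 12393 genes, and their median signal was 519 units. Vim, the intermediate filament gene of mesenchymal cells, read 1718, 1798 and 1818 units on 3 probe sets that were all present. Pdgfrb, a receptor for platelet-derived growth factor, read 191, 160 and 159 units, and its relative Pdgfra read 67.2, 105 and 99.5 units. The transcription factor gene Prrx1 read 615, 516 and 668 units. Dcn, which encodes the small proteoglycan decorin, varied little, with 2055, 2092 and 2149 units. Fap, Thy1, Postn, Lum and Mfap5 were also present. Cd34, a marker of some interstitial fibroblasts, was the exception, with 9.48, 1.41 and 5.56 units.

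Smooth muscle genes were nearly as complete, with 14 of 16 present and a median of 428 units. Beside Acta2, the actin-binding gene Tagln read 2384, 2019 and 2397 units, the myosin light chain gene Myl9 1850, 1898 and 2163 units and enteric actin Actg2 711, 604 and 672 units. Calponin, Cnn1, read 448, 423 and 428 units, and desmin, Des, 433, 371 and 463 units. Myh11, the smooth muscle myosin heavy chain that marks the mature cell, was far dimmer and less even, with 107, 35.7 and 55.7 units. Replicate 1 was the high array for it, and a further Myh11 probe set lay under 10 units on all 3 arrays. Myocd, the coactivator of smooth muscle genes, was absent on both of its probe sets at 4.96, 5.11 and 5.63 units on the brighter. Itga8, an integrin gene, was absent too. The partner of Myocd, Srf (serum response factor), was present at 37.1, 59.6 and 45.8 units.

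**Figure D2:**
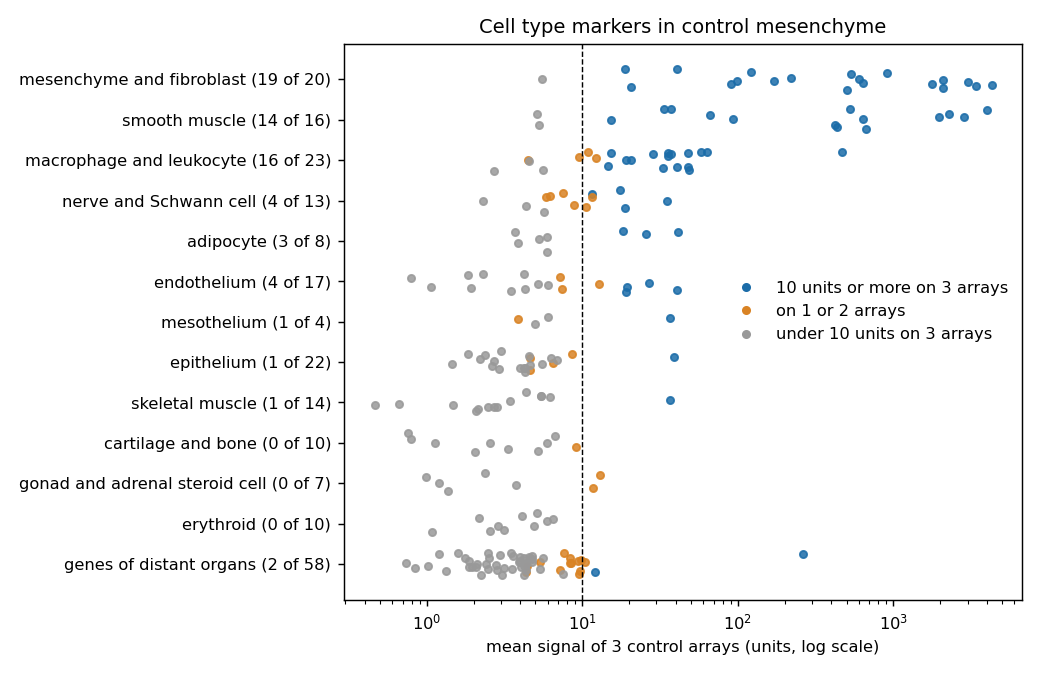
Mean signal of each marker gene over the 3 control arrays, in units on a log axis, by cell type list, with the number present of the number measured beside each name and a dashed line at 10 units. The mesenchyme and smooth muscle lists spread to above 1000 units, the macrophage list lies mostly between 10 and 100 units, and most genes of each other list lie to the left of the line.

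The level of 10 units was set against 58 genes that belong to organs far from the UGS, such as liver, brain, pancreas and lens. Of these, 2 were present (3.45%), 13 were split and 43 were absent. The present ones were Cryab, with 253, 239 and 297 units, a small heat shock protein gene that is also used outside the lens, and Ighm at 12.2, 10.9 and 13.2 units. This list was added after the values had been seen, so it is not an independent check of the level. Over all genes 59.1% were present and 29.4% absent, and these shares are the background for the calls given below. A gene under 10 units may still be expressed at a level that its probe set did not read.

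Epithelial genes were mostly absent. Of 22 measured, 1 was present, 4 were split and 17 were absent, with a median of 4.29 units. The present gene was Krt18, a keratin of simple epithelia, at 41.8, 37.8 and 36.4 units, close on all 3 arrays. Its usual partner Krt8 read 9.56, 1.96 and 7.37 units. Cdh1, E-cadherin, read 4.37, 0.717 and 6.86 units, and Epcam 0.558, 3.67 and 4.47 units. The split genes Krt19, Krt5, Krt15 and Cldn3 crossed 10 units on some arrays without passing 12.9 units on any. Trp63, the basal cell factor, and Foxa1 were absent too. Fewer cells of a type and less RNA per cell cannot be told apart in such bulk samples, here or in the groups that follow.

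Of the lists for cells other than mesenchyme and smooth muscle, the macrophage list had the highest share present. Of 23 markers of macrophages and other leukocytes, 16 were present (69.6%, against 59.1% of all genes), 4 split and 3 absent. Their median was 28.4 units, against 23.2 units for the median gene. Lyz2, macrophage lysozyme, read 360, 453 and 582 units, and its close copy Lyz1 605, 964 and 1063 units, near-identical copies whose signals may not be separable. Csf1r, the receptor for the macrophage growth factor CSF1, read 42.2, 69.6 and 79.4 units. Cd14, a coreceptor for bacterial lipopolysaccharide, read 48.5, 57.1 and 67.4 units. For each of these replicate 1 was the lowest array and replicate 3 the highest. Fcer1g, an adapter of Fc receptors, had the widest step, with 18.9, 57.9 and 67.5 units. Tyrobp, C1qb, C1qa, C1qc, Adgre1 (the F4/80 antigen), Cd68 and Ptprc (CD45, at 11.3, 13.6 and 21.0 units) were present as well. Csf1, the ligand of Csf1r, read 128, 135 and 154 units. The T cell gene Cd3e was absent, as were the mast cell gene Cpa3 and Itgam, while Cx3cr1, Aif1, Mrc1 and Kit were split.

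The signal of the macrophage list differed between the control samples. The 16 present genes summed to 774, 1027 and 1232 units in replicates 1, 2 and 3, so that the highest array was 1.59 times the lowest. Replicate 1 was the lowest array for 13 of the 16 and replicate 3 the highest for 12, against 2750 and 2974 of all 7326 present genes. The median deviation, log2 signal minus the mean log2 of the other arrays, was -0.48 in replicate 1 and 0.36 in replicate 3. With values as deposited the deviation of replicate 3 was -0.04, and that of replicate 1 kept its sign as deposited and under quantile normalization. A high replicate 3 was not particular to this list. It was also the highest array for 32 of 42 ribosomal protein, 33 of 48 cytoskeletal, 12 of 19 mesenchyme and 9 of 14 smooth muscle genes. For 69 matrix and 21 interferon response genes the counts were 27 and 7.

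The remaining cell types left few traces. In endothelium 4 of 17 genes were present, all at 11.2 to 49.1 units: Flt1 (49.1, 40.5 and 32.9 units) and Kdr (18.8, 18.9 and 19.7 units), receptors for VEGF, with Egfl7 and Emcn. The defining genes Pecam1, Cdh5, Tie1 and Vwf were absent, and Pecam1 read 1.21, 1.26 and 0.727 units. Among nerve and Schwann cell genes Uchl1 (33.1, 39.6 and 33.0 units), Ngfr, Tubb3 and Erbb3 were present of 13, 6 were split, and Mbp and Foxd3 were absent. In the skeletal muscle list only Acta1 of 14 was present, at 41.6, 31.8 and 37.1 units, and Myod1, Myog, Myf5 and Pax7 were absent. Lpl, Fabp4 and Cebpa were present of 8 adipocyte genes, with Adipoq, Pparg and Lep absent.

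None of the 10 erythroid genes and none of the 10 cartilage and bone genes was present, and Col2a1 read under 1 unit on all 3 arrays. Of 7 genes of gonadal and adrenal steroid cells, 0 were present, Cyp21a1 and Star were split and Cyp17a1, Cyp11a1, Nr5a1, Amh and Hsd3b1 were absent. Without replicate 2 or without replicate 3 the count became 1. Wt1, a gene of mesothelium and of urogenital mesenchyme, read 36.2, 52.1 and 22.3 units, while Msln and Upk3b were absent. The male sex given in the paper's methods was matched by the Y-linked genes Eif2s3y (21.6, 21.8 and 17.95 units) and Uty (20.7, 21.6 and 17.3 units), which were both present. Kdm5d, also Y-linked, was split at 8.89, 12.1 and 7.32 units. Xist, the RNA of the inactive X, was absent on all of its 3 probe sets but lay just under the level, at 8.42, 7.09 and 9.19 units on the brightest, and all 4 of these genes were present at 5 units.

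The signal-receiving side was read next, beginning with nuclear receptors, the ligand-activated transcription factors that include the steroid receptors. Of 42 measured, 16 were present (38.1%, against 59.1% of all genes), 8 split and 18 absent. The 5 alpha reductase genes Srd5a1 and Srd5a2, which make DHT, were not analysed here. The estrogen receptor gene Esr1 was absent at 6.83, 6.23 and 1.26 units, Esr2 at 2.09, 5.55 and 0.955 units, and the progesterone receptor gene Pgr at 5.77, 4.26 and 6.49 units, each on a single probe set. The paper describes Esr1 as expressed in UGS mesenchyme and measured it in such cells by quantitative PCR. Absent here means only that the probe set read under 10 units. The brightest nuclear receptor genes were Nr2f6 (106, 93.2 and 105 units) and the glucocorticoid receptor gene Nr3c1 (76.3, 96.9 and 60.2 units). Thra, the alpha receptor for thyroid hormone, read 89.1, 65.7 and 67.6 units, with a further probe set absent. Nr2f1 and Nr2f2, the COUP factors of mesenchyme, read 70.1 and 64.9 units in mean. The retinoic acid receptors Rarb, Rarg and Rara were all present, at 61.4, 59.8 and 17.7 units in mean, with their partners Rxra and Rxrb. Beside the receptors named, Esrrb, Esrrg, Pparg and Ppara were absent.

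The proteins that fold steroid receptors or join them on DNA were almost all read. Of 26 chaperone and coregulator genes, 25 were present, with a median of 106 units. Ctnnb1, beta catenin, read 1126, 1110 and 1188 units and Hspa8, a heat shock cognate chaperone, 1073, 954 and 1108 units. Hsp90aa1, the chaperone that holds steroid receptors ready for ligand, read 576, 600 and 621 units. Ncoa4 and Tgfb1i1, coactivators of steroid receptors, read 432, 473 and 449 units and 255, 237 and 259 units. Fkbp5, an immunophilin gene known to respond to androgen in the prostate, read 106, 102 and 82.1 units. The absent gene was Ncoa2, at 6.08, 6.01 and 3.35 units. For all of these but Fkbp5, which was lowest in replicate 3, and Ncoa2 the highest array was under 1.2 times the lowest.

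Of 19 genes that make or break down androgens and estrogens, 10 were present (52.6%, against 59.1% of all genes), 2 split and 7 absent. The brightest were the 17 beta hydroxysteroid dehydrogenases Hsd17b12 (232, 290 and 263 units), Hsd17b11 (235, 233 and 211 units), Hsd17b10 (171, 194 and 214 units) and Hsd17b4 (115, 129 and 123 units). Cyp1b1, which hydroxylates estrogens, read 142, 143 and 162 units on its brightest probe set and was absent on another. Cyp7b1, which removes a metabolite of DHT, read 50.5, 69.7 and 50.9 units. Srd5a3, a family member that acts on polyprenol, read 52.3, 34.2 and 75.9 units and was uneven. Sult1e1, the estrogen sulfotransferase, read 17.6, 23.4 and 14.8 units. Hsd17b1, Hsd17b2, Hsd17b3 and Hsd17b6 were absent.

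Hox genes, which give cells their position along the body axis, were present in part. Of 31 measured, 13 were present (41.9%, against 59.1% of all genes): 5 of 9 in cluster A, 3 of 9 in cluster B, 1 of 6 in cluster C and 4 of 7 in cluster D. Among paralogs 9 to 13, the group of the trunk end and genital region, 7 of 13 were present, a share near that of all genes and all in clusters A and D, and among paralogs 1 to 8, 6 of 18 were present. Differences between clusters or paralogs were not tested. The highest was Hoxa11 at 83.6, 83.3 and 101 units, followed by Hoxa9 at 56.4, 81.7 and 58.9 units and Hoxa5 at 43.3, 44.7 and 47.5 units. Hoxa13 and Hoxd13, both known to act in prostate development, read 25.8, 21.3 and 19.1 units and 16.02, 27.3 and 26.2 units. Hoxa10 read 33.9 ± 13.4 units (SD, n = 3) and had its high value, 49.2 units, in replicate 2, as Hoxa9 had. Hoxd10 and Hoxd9 were present at lower levels and Hoxd11 was split. Hoxb13, a gene of prostatic epithelium, was absent, as were Hoxd12, Hoxc9 and Hoxc13. The paper names Hoxb13 among the genes that responded to estradiol in its mesenchymal cells, and absent here means only a reading under 10 units. Most of the present Hox genes lay near the level: at 20 units instead of 10 the count fell to 5 of 31.

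**Figure D3:**
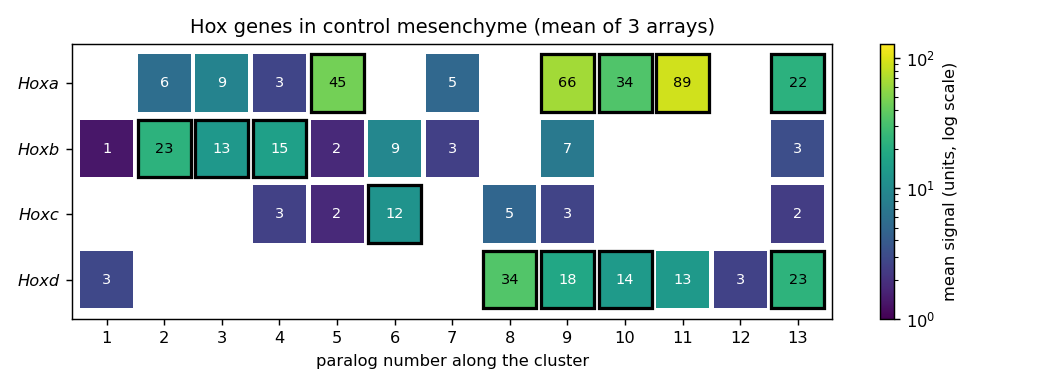
Mean signal in units over the 3 control arrays for each Hox gene measured, by cluster (rows) and paralog number (columns), with color on a log scale, the value printed in each cell, a black frame around present genes and blank cells for genes not analysed here. The brightest cells are Hoxa11 at 89 units and Hoxa9 at 66, framed cells at paralogs 9 to 13 lie in Hoxa and Hoxd, and Hoxc has a single framed cell at 12 units.

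Other transcription factors of mesenchyme and of the urogenital tract were present for 39 of 71 genes (54.9%), near the 59.1% of all genes, with 13 split and 19 absent. After Prrx1 came Hmga2, an architectural factor of fetal growth (397, 238 and 314 units), the imprinted gene Peg3 (304, 370 and 259 units), Sox4 (210, 230 and 196 units), Meis2 (200, 164 and 169 units) and Id3 (174, 184 and 169 units). Tcf21 and Osr1, factors of visceral and urogenital mesenchyme, read 100, 86.0 and 94.6 units and 92.7, 84.6 and 99.4 units. The arrays lay close together for both. Gata6, Gata2, Isl1, Tbx3, Six2 and Eya1 were present at lower means, from 74.6 units down to 21.9. Pitx1, a hindlimb gene, was uneven, at 34.8 ± 16.3 units (SD, n = 3), and lowest in replicate 3. Foxf1, the target of hedgehog signals in mesenchyme, was split at 8.98, 15.7 and 15.8 units, and Sox9, Tbx18, Gata4 and Nkx2-1 were absent. A further, dimmer Sox9 probe set was split, with a mean of 4.42 units.

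Growth factors and morphogens are the means by which mesenchyme instructs epithelium. Of 62 such genes, 31 were present, 16 split and 15 absent, a share below that of all genes. The chemokine gene Cxcl12 gave the highest signal, at 1096, 1135 and 1308 units. Pleiotrophin, Ptn, read 602, 743 and 1003 units with replicate 3 high, and its relative midkine, Mdk, read 461, 535 and 568 units. Gas6, the ligand of the Axl receptor, read 532, 492 and 517 units. Tgfb3 read 283, 314 and 270 units, and Inhba, the activin A subunit, 282, 189 and 174 units with replicate 1 apart.

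The classical prostatic signals differed in their calls. Bmp4, a mesenchymal inhibitor of budding, read 193, 173 and 225 units. Fgf7, which acts on epithelium through Fgfr2, read 153, 189 and 196 units. Fgf10, needed for prostatic buds, lay at the level and was split, at 11.1, 8.59 and 14.7 units. Bmp7 was absent on its 3 probe sets, at 0.858, 4.44 and 0.383 units on the brightest, and Shh, the epithelial hedgehog, was absent at 1.22, 1.42 and 1.74 units. Igf1 read 105, 101 and 142 units and Hgf 54.0, 50.8 and 59.7 units. Among Wnt genes, Wnt4, Wnt11 and Wnt5a were present between 16.6 and 49.2 units on any array, Wnt2 and Wnt5b were split, and Wnt6, Wnt7b, Wnt10a and Wnt10b were absent. Rspo2, an enhancer of Wnt signals, read 26.7, 49.9 and 32.8 units.

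Secreted inhibitors and binding proteins were present in 26 of 34 (76.5%, against 59.1% of all genes), with 8 absent and a median of 76.8 units. Beside the proteoglycans Bgn (2003, 1646 and 2724 units) and Dcn stood Fstl1, a follistatin relative (1703, 1476 and 1622 units). The insulin-like growth factor binding proteins Igfbp7, Igfbp2 and Igfbp5 read 1246, 854 and 781 units in mean. Of the Wnt inhibitors, Sfrp1 read 395, 490 and 541 units, Sfrp2 171, 197 and 195 units and Sfrp4 88.9, 103 and 100 units, each with replicate 1 lowest. The BMP inhibitor Grem1 read 72.8, 69.6 and 30.5 units, with replicate 3 apart. Nog, Cer1, Wif1 and Hhip were absent.

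Receptors for these factors were present in 42 of 63 genes (66.7%, against 59.1% of all genes), with 7 split and 14 absent. The Wnt receptor Fzd2 read 682, 637 and 555 units, Axl 539, 580 and 582 units and Tgfbr2 351, 367 and 292 units. Igf2r read 217 units in mean and Ryk 190.0. Fgfr1 read 126, 112 and 96.5 units and Fgfr2, the receptor of Fgf7 and Fgf10, 40.2, 35.9 and 44.9 units. In the hedgehog pathway Smo read 125, 109 and 113 units, Gli2 50.8, 82.9 and 63.4 units and Gli3 23.3, 20.4 and 21.9 units. Ptch1, a receptor that is also a target, read 15.7, 12.8 and 15.9 units. Gli1, the target most often used to read the pathway, was absent at 0.482, 0.876 and 2.52 units. Met, the receptor of Hgf, was absent at 1.40, 1.91 and 3.08 units, and so were Cxcr4, the receptor of Cxcl12, and Erbb4.

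The matrix list was almost fully present, with 69 of 70 genes and a median of 392 units, and Tnxb was the absent gene at 1.60, 2.44 and 8.33 units. Beside the type I and III collagens, Sparc, Lox and Bgn, it held Fn1, fibronectin, at 2119, 1986 and 2166 units, Mgp, matrix Gla protein, at 1892, 1936 and 2379 units, and Thbs1 at 1601, 1432 and 1434 units. The matrix genes showed no common order of the arrays: each of replicates 1 and 3 was the highest for 26 and 27 of the 69.

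The cells carried genes of the cell cycle and of its arrest side by side. Of 43 cell cycle and replication genes, 38 were present. The cyclin gene Ccnd2 read 781, 887 and 934 units, Cdk4 628, 614 and 614 units, and Pcna, the replication clamp, 544, 553 and 647 units. Mki67, the proliferation antigen, read 85.5, 116 and 104 units, and Top2a 117, 115 and 132 units. Ccne2, Tyms and Cenpe were absent, and Foxm1 and Cdc6 were split. All 20 genes on the list of CDK inhibitors and growth arrest were present, led by Cdkn1a, the p21 inhibitor, at 744, 762 and 732 units, with Gas1 at 700, 637 and 628 units and Cdkn1c at 132, 165 and 141 units.

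Metabolic and stress genes were present nearly throughout. All 20 cholesterol synthesis genes were present, led by Hmgcs1 at 429, 523 and 418 units, as were 21 of 22 glycolysis genes, led by Tpi1 at 1317, 1244 and 1592 units, where only the muscle gene Pgam2 was absent. Of 28 genes of hypoxia and unfolded protein stress 27 were present, led by the chaperone gene Hspa5 at 1443, 1380 and 1563 units, and Car9 was absent. Of 25 immediate early genes 23 were present, with Ccn1 at 452, 362 and 416 units, Egr1 at 279, 212 and 196 units and Fos at 74.3, 70.0 and 85.6 units, while Fosb was absent. All 42 ribosomal protein genes measured of the 78 on the list and all 48 cytoskeletal genes were present.

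Imprinted genes, of which a single parental copy is used in some or all tissues, were present for 15 of 27 (55.6%), near the 59.1% of all genes. The signals here do not tell the parental copies apart. Gnas read 2008, 1713 and 1991 units, Grb10 738, 666 and 689 units, Meg3, a long noncoding RNA, 718, 616 and 617 units and Ndn 348, 376 and 419 units. Igf2 read 54.8, 66.1 and 52.9 units, with a further probe set absent. Dlk1 was split at 5.34, 22.2 and 13.1 units, and Peg10, Phlda2 and Ascl2 were absent. Except for Dlk1, the arrays lay close to one another in the genes named.

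Interferon response genes gave 21 present (72.4%, against 59.1% of all genes), 5 split and 3 absent of 29. B2m, the light chain of class I antigens, read 1212, 1360 and 1463 units and H2-K1 621, 661 and 742 units. Ifit1 read 30.7, 56.4 and 39.8 units and Bst2 98.6, 147 and 161 units. Replicate 1 was the lowest array for 15 of the 21, with a median deviation of -0.30, and replicate 2 was the highest for 11. Mx1, Mx2 and Ifi204 were absent. The macrophage genes above were lowest in the same array, and their part in this was not tested.

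**Figure D4:**
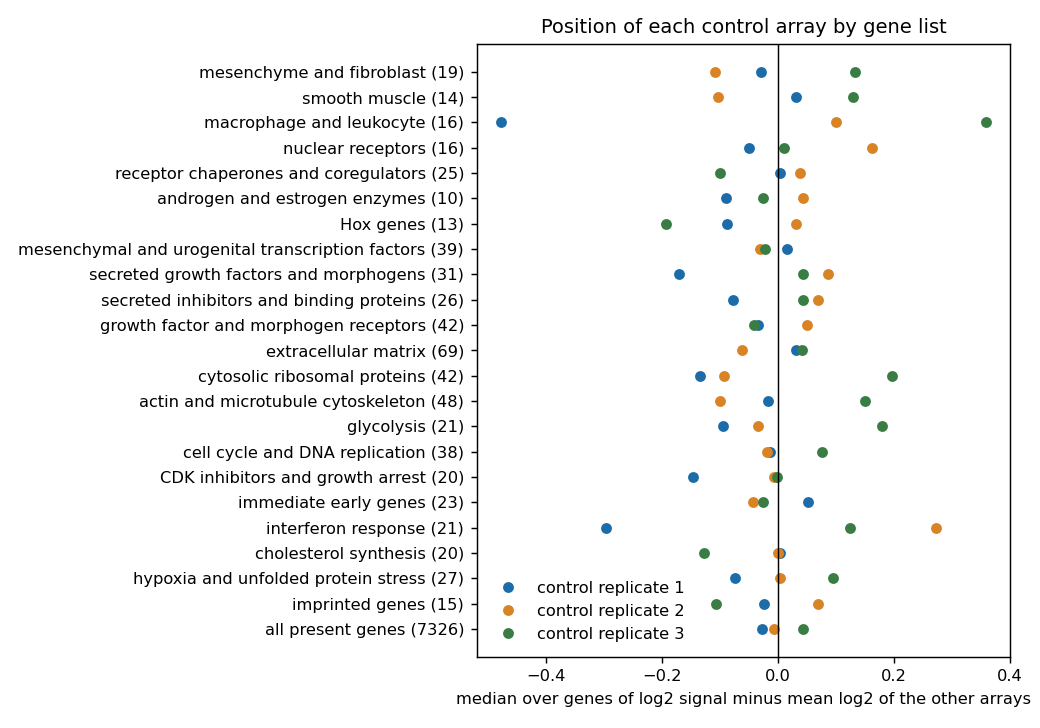
Position of each control array by gene list: the median over the present genes of a list (their number in parentheses) of log2 signal minus the mean log2 of the other arrays, for lists with 10 or more present genes. Replicate 1 lies farthest to the left in the macrophage list at -0.48 and the interferon list at -0.30, while for all 7326 present genes the 3 points lie between -0.03 and 0.04.

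The spread between replicates was small for bright genes and large under the level. The median coefficient of variation (CV, the SD over the mean of the 3 arrays) was 61.99% for genes under 10 units, 24.3% at 10 to 20, 16.3% at 20 to 50 and 12.0% at 50 to 100 units. It was 8.60% at 100 to 500, 8.06% at 500 to 1000 and 9.48% at 1000 units or more, and 12.2% over all present genes. The pairs of arrays correlated over present genes with Pearson's r of 0.972 to 0.976 on the log2 scale, given as a description across genes. Of 7326 present genes, 82 differed over 2-fold between replicates 1 and 2, 122 between replicates 1 and 3 and 83 between replicates 2 and 3. A gene at 10 to 20 units can therefore change its call between arrays, as Bmpr2 (9.82, 14.7 and 5.88 units) and Rsad2 (16.02, 12.8 and 1.91 units) did just above a mean of 10. Cdc6 (9.67, 10.2 and 9.68 units) and Nppa (6.61, 10.1 and 12.7 units) did so just under it.

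**Figure D5:**
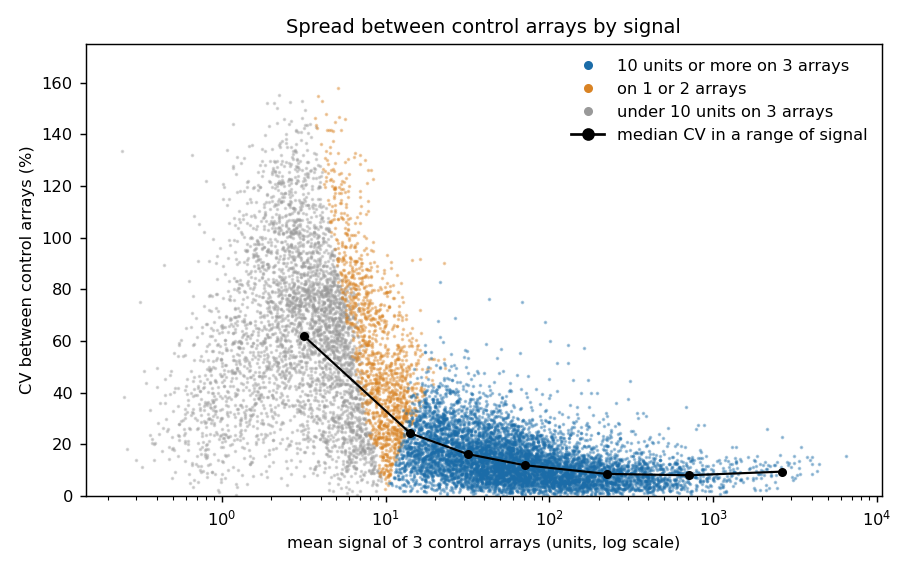
Coefficient of variation between the 3 control arrays, in percent, against mean signal in units on a log axis, with a point for each gene colored by its call and a black line through the median CV in each range of signal. The median falls from 61.99% under 10 units to 8.06% at 500 to 1000 units.

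Few bright genes were uneven. Of 2424 genes with a mean of 100 units or more, 5 had a CV above 50%. The largest SD of log2 was that of Ap2b1, an adaptor subunit of clathrin coats, at 173, 174 and 42.0 units, followed by Malat1, a nuclear noncoding RNA, at 119, 151 and 33.4 units. Slc39a1, a zinc transporter gene, read 47.9, 127.5 and 159 units. Mfap4, a microfibril gene of smooth muscle and matrix, read 382, 396 and 151 units, and Ddr2, a collagen receptor, 201, 143 and 75.6 units. Replicate 3 was the low array in Ap2b1, Malat1, Mfap4 and Ddr2, and replicate 1 in Slc39a1. Replicate 3 was the high array in Vps4b, at 103, 114 and 268 units, and in Ift20, at 78.7, 105 and 205 units. Among the 100 most uneven bright genes, the array farthest from the others was replicate 3 on the high side in 22 and the low side in 18, and replicate 1 on the low side in 25. The rest of the 15 most uneven were Ndufa12, Gtpbp2, Snhg1, Pdia4, Slc38a2, Cavin1, Cox16 and Shisa5. At the steady end Pafah1b1 read 170, 171 and 170 units and Ppp1ca 440, 438 and 439 units.

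Probe sets of the same gene often disagreed. Of 12393 genes, 4956 had several probe sets, and in 1087 of these (21.9%) at least 1 was present and at least 1 absent. The median ratio of the brightest to the dimmest was 3.29. Among the genes named here with such a disagreement were Des, Myh11, Gas1, Anxa2, Axl, Tgfbr2, Cyp1b1, Thra, Ptch1, C1qb, Fabp4, Ngfr, Erbb3 and Top2a. A call of presence by the brightest probe set is therefore a call for that probe set, and why the others were dimmer was not tested.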

How the data were processed

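The control samples were 3 of the 6 Affymetrix mouse 430A arrays of the series, and the other 3 were not used. The deposited values are intensity on a linear scale for each probe set, which the authors computed with Affymetrix software. How that software corrected the background or scaled the arrays is not given in the sources used here. Of 22690 probe sets, 64 AFFX probe sets were left out, and the values of each array were divided by its median and multiplied by the mean of the 3 medians, 17.0 units. Symbols came from the platform's annotation: 20380 probe sets had 1 symbol, 691 several and 1555 none, and only the first were named. Calls at 10 units, means, SDs and CVs were computed in Python 3.11.15 with pandas 2.3.3 and numpy 2.4.6, and plots were drawn with matplotlib 3.10.9. The steps were tested on simulated data. No test between groups was run.

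The members and the gene lists were chosen with earlier results of these data known. The lists of imprinted genes and of genes of distant organs were added after the values had been seen. The genes named are the 25 brightest, for each list up to 6 present genes by signal with absent ones in list order, a fixed set of 20 hormone, signal and marker genes, the 15 with the largest SD of log2 at 100 units or more, and the 2 list genes on each side of 10 units. Other genes named were chosen after their values were seen. Promoter sequence was that of RefSeq, build GRCm38.p6. The alternatives were values as deposited, scaling by the 75th percentile, quantile normalization, levels of 5 and 20 units, the mean of the 3 arrays, the median of a gene's probe sets, probe sets without _s, _x or _a suffix, log2(value + 16), and each array left out in turn. With no read depth behind an array signal, the precision is set by the 3 arrays.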

Additional observations from a re-analysis of the deposited data

How the results depend on the processing

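Over 44 results and 12 alternative settings, 387 of 421 recomputed values stayed within 1.5 times the value given or, for the deviations, kept their sign and moved by less than the SD between arrays. At 5 units the absent genes fell to 1591, and the present counts were 7 for nerve, 1 each for cartilage and bone, erythroid and gonad and adrenal cells, 4 for the Y-linked and Xist list and 7 for distant organs. At 20 units they were 1 for endothelium, 1 for nerve, 0 for the Y-linked list, 5 for Hox genes and 1 for distant organs. Without the _s, _x and _a probe sets, which leaves fewer genes measured, they were 2 for endothelium, 0 for skeletal muscle, 0 for mesothelium, 1 for the Y-linked list, 14 for ribosomal proteins (of 19), 11 for glycolysis (of 14), 13 for interferon (of 19) and 0 for distant organs, and 18 of the 50 brightest were shared. By the median of probe sets they were 2 for nerve and 1 for distant organs. The gonad and adrenal count was 2 by the mean of the 3 arrays and 0 to 1 when an array was left out. As deposited, the median CV was 19.5% and the median SD of log2 0.29, against 12.2% and 0.18 after scaling. As deposited, the deviations of replicate 3 were -0.037 for macrophage genes, -0.20 for ribosomal proteins, -0.25 for the cytoskeleton and -0.27 for smooth muscle, against 0.36, 0.20, 0.15 and 0.13, since its median was the lowest. Under quantile normalization they were -0.0076 for ribosomal proteins and -0.017 for the cytoskeleton. No paired analysis was possible because no groups were compared. The calls are limited by signal over background, since a gene under 10 units may be expressed, and by the number of arrays.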
